A study of Mus musculus with 9 samples.

Results

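The gene group examined here comprised 8 genes of the NF-kB pathway, chosen by name from the count and FPKM tables: Nfkb1, Nfkb2, Rela and Relb, which encode subunits of the transcription factor, Nfkbia, which encodes the inhibitor IkappaB-alpha, Ikbkb, which encodes the kinase IKK-beta, Tnfaip3, which encodes the feedback inhibitor A20, and Icam1, a target gene that encodes an adhesion molecule of vessels and leukocytes. All 8 were present among the 53465 genes of the tables, and all 8 passed the filter on low counts that left 18501 genes for testing. Whole-brain poly(A) RNA from 9 male C57BL/6 mice, 7 weeks old at the start, was sequenced, with 1 library per mouse and 3 per group. Control mice (CON) received saline. Mice with diabetic neuropathic pain (DNP) ate a 60% fat diet for 4 weeks before 7 daily doses of streptozotocin (50 mg/kg), which destroys insulin-producing cells, and were later given saline. Baclofen-treated mice (BAC) went through the same induction and were later given baclofen, which activates GABA-B receptors, in 7 daily doses of 8 mg/kg. The diabetic mice were enrolled only if they had both high blood glucose and lowered pain thresholds, and no group received the diet or streptozotocin alone, so in comparisons with CON the diet, streptozotocin and this selection cannot be told apart. DNP and BAC differed by baclofen, which no mouse without diabetes received. 

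NF-kB is a family of dimeric transcription factors held in the cytoplasm by IkappaB proteins. When receptors for TNF, interleukin 1 or microbial products are engaged, the IKK kinase complex phosphorylates IkappaB-alpha, which is degraded, and dimers such as p50 and RelA enter the nucleus. Nfkbia and Tnfaip3 are themselves induced by NF-kB and close the loop, so their mRNA is often read as a sign of pathway activity, although Nfkbia is also a known target of the glucocorticoid receptor. In the brain the pathway is present in microglia, astrocytes, endothelium and neurons. The protein steps (phosphorylation, degradation, nuclear entry) leave no direct trace in mRNA counts and were not measured here.

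Between 13107382 and 16008129 counts per library were assigned to genes. Markers of neurons, astrocytes and oligodendrocytes were present in every library, but the region content of the libraries differed. A cerebellum score, which averages over 10 markers the log2 difference of a library from the mean of the 9, was below 0 in CON replicate 1, DNP replicates 2 and 3 and BAC replicate 2, and a brainstem score, made the same way from 9 brainstem and spinal cord markers, was above 0 only in replicate 1 of DNP and replicates 1 and 3 of BAC. Mitochondrial genes took 4.34% to 5.36% of counts in CON and 5.94% to 7.23% in the diabetic groups. All 8 oligodendrocyte markers and all 5 erythroid markers were higher in DNP than in CON at an unadjusted p under 0.05 (edgeR; all genes 5.71% in that direction), with median log2 differences of 1.29 and 1.55. Their summed levels were 2167 to 2932 CPM in CON and 3734 to 9336 in DNP for oligodendrocytes, and 190 to 205 CPM and 477 to 683 for erythroid cells. The part of these in the results on the 8 genes was not tested. In whole tissue, fewer cells of a type and less RNA per cell cannot be told apart.

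The 8 genes differed widely in level. In FPKM, the deposited unit that divides the count by a gene length and by the library total, Rela averaged 12.1 over the 9 libraries and Nfkbia 10.5. Both were above Ikbkb (2.23), Nfkb1 (1.72), Relb (1.02), Nfkb2 (0.990), Icam1 (0.675) and Tnfaip3 (0.334). The ranges over the 9 libraries did not overlap between Nfkbia and Ikbkb or between Nfkb1 and Relb, and every other pair of neighbours in this order overlapped. Rela was above Nfkbia in 7 of 9 libraries, the exceptions being DNP replicates 2 and 3. The gene length used by the authors is not given, and with the exonic bases of the GENCODE annotation in its place Nfkbia averaged 12.9 (counts per kilobase of exons, scaled to library total) and Rela 10.7, so the order of these top genes depends on the length. Within a gene, the highest library exceeded the lowest by 1.64-fold for Rela and by 3.44-fold for Tnfaip3, with Icam1 (3.37-fold) and Nfkb2 (2.69-fold) next to Tnfaip3.

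**Figure D1:**
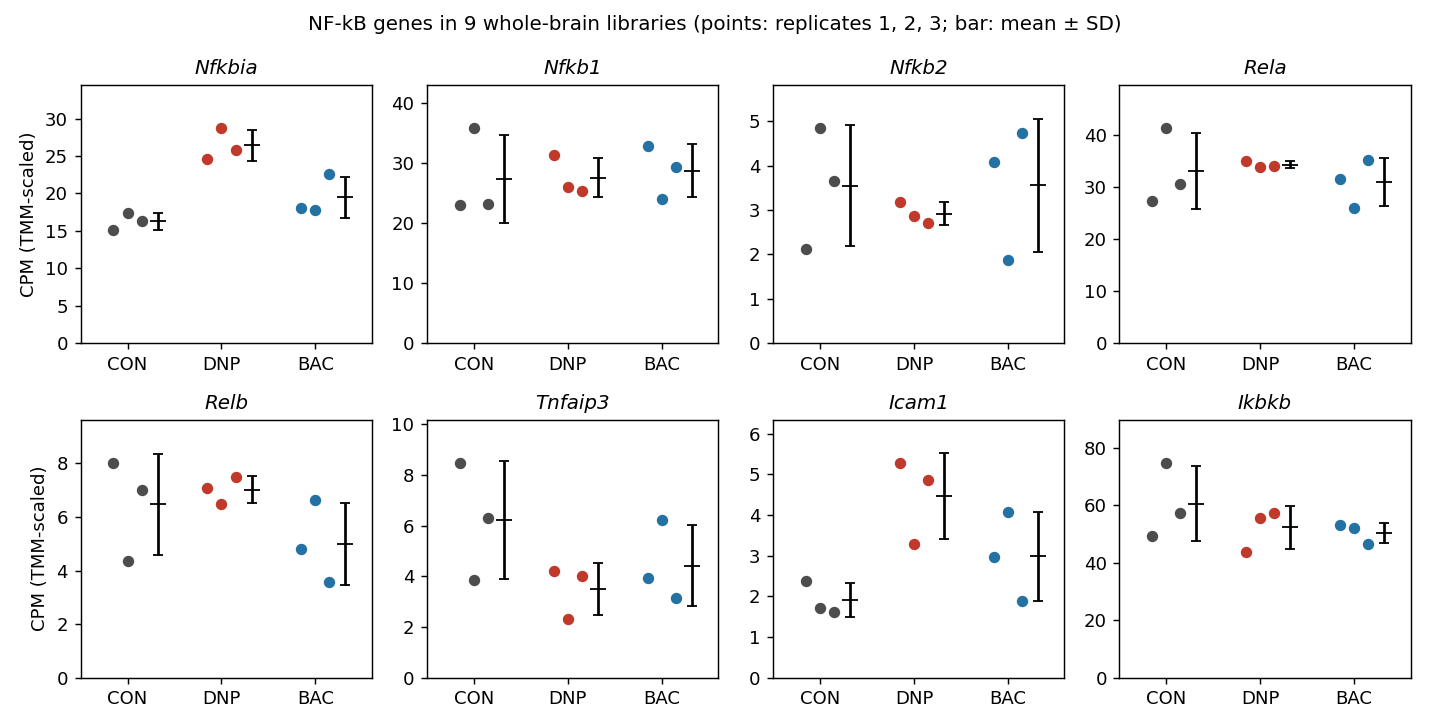
Each panel shows 1 gene, with CPM after TMM scaling on the vertical axis from 0 and the 3 groups on the horizontal axis; points are single libraries in the order of replicates 1, 2 and 3, and the bar gives the mean and SD. Nfkbia and Icam1 are the panels in which the DNP points lie above the CON points without overlap.

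The inhibitor gene Nfkbia (ENSMUSG00000021025, chromosome 12 of GRCm38 from 55489410 to 55492647, minus strand) had 227, 243 and 233 counts in CON, 340, 421 and 393 in DNP, and 248, 257 and 359 in BAC, in the order of replicates 1 to 3. Scaled to CPM (counts relative to the library total, with TMM factors), it was at 15.1, 17.3 and 16.4 in CON, 24.6, 28.7 and 25.8 in DNP and 18.0, 17.7 and 22.6 in BAC. No DNP library overlapped a CON or a BAC library. After TMM scaling no BAC library overlapped a CON library either, but on the deposited FPKM, scaled by library totals, BAC replicate 2 (8.77) lay below CON replicate 2 (8.85). The full order CON, BAC, DNP of the TMM-scaled values, looked for after the values were seen, was held by 43 of the 18501 tested genes (0.232%), and the opposite order by 53 (0.286%).

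In DNP versus CON the level of Nfkbia was 1.62-fold higher, a log2 fold change of 0.70 (standard error 0.15, 95% interval 0.35 to 1.05), with an adjusted p of 0.294 in edgeR's quasi-likelihood test and an unadjusted p of 0.00157, the 93rd smallest of 18501. DESeq2 gave a log2 fold change of 0.69 and an adjusted p of 0.0196, so that whether Nfkbia passed 0.05 depended on the tool. In BAC versus DNP the log2 fold change was -0.44 (standard error 0.15, interval -0.79 to -0.09), with an unadjusted p of 0.0194 and an adjusted p of 0.998 in edgeR. In BAC versus CON it was 0.26 (standard error 0.15, interval -0.09 to 0.61; adjusted p = 0.689, edgeR), and 0.13 without BAC replicate 3. DNP versus CON and BAC versus DNP share the DNP libraries, with opposite signs. None of these comparisons passed the adjusted threshold in edgeR.

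The bases upstream of Nfkbia and Icam1 are shown because these were the genes of the group whose DNP libraries all lay above the CON libraries. The bases come from RefSeq (GRCm38.p6) and cover the 250 bases before a RefSeq start, 5′ to 3′ on the gene's strand. Distances are counted from that start, which is not always the start of the GENCODE positions given here. The Tnfaip3 and Nfkb2 windows lie wholly or almost wholly inside the GENCODE genes, and the Rela window partly. The Icam1 window ends at 21015939, before the GENCODE start at 21015985. Capitals mark matches, on either strand, to the kappaB consensus, the site that NF-kB dimers bind, searched as 3 G bases, a purine, 2 bases of any kind, 2 pyrimidines and 2 C bases.
Nfkbia, chr12:55492648-55492897, minus strand: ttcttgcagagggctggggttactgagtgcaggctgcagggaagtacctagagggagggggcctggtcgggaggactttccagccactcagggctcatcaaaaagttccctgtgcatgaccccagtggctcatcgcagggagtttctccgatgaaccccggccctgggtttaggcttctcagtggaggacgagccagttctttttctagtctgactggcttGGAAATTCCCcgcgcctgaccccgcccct
Icam1, chr9:21015690-21015939, plus strand: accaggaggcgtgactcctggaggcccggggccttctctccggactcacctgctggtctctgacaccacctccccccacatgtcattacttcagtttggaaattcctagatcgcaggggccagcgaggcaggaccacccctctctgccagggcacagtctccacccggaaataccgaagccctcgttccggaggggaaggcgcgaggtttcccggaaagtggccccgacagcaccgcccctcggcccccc
In Nfkbia the match lay from 29 to 20 bases before the start and read GGGAATTTCC on the opposite strand. The Icam1 window held no match to these letters. It does hold tggaaattcc, which departs from them only in its first letter, and the search leaves out such near matches. A window without a match can therefore still hold a kappaB site. Of the 8 genes, 5 had an entry in the promoter table, and 3 of these held a match, as did 7.25% of the 32851 promoters and 8.23% of the 27025 genes in the table over the same 250 bases. In the first of 2 Tnfaip3 entries the matches read GGGACACCCC, from 125 to 116 bases before the start, where the opposite strand also matched as GGGGTGTCCC, and GGGGATTTCC on the opposite strand, from 12 to 3 bases before it, and the second entry held none. Nfkb2 has 3 entries. In the first of these, GGGAATTCCC lay from 39 to 30 bases before the start and was read on both strands, with a further match to the opposite strand shifted by a base, and GGGGCTTTCC lay from 11 to 2 bases before it. Both other Nfkb2 entries held 1 match each. No match was found in Rela. A match is a stretch of letters and was not tested for binding.

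Icam1 (ENSMUSG00000037405, chromosome 9 from 21015985 to 21028817, plus strand), which encodes the receptor on endothelium and glia through which leukocytes adhere, had the largest DNP versus CON difference of the 8 genes in edgeR's fit without covariates. With the region scores as covariates the difference of Tnfaip3 was larger (-1.61 against 0.94), and on log2(FPKM + 1) that of Nfkbia was (0.68 against 0.49). Its counts were 36, 24 and 23 in CON, 73, 48 and 74 in DNP and 41, 59 and 30 in BAC. The mean CPM of 3 mice was 1.90 ± 0.421 (SD) for CON, 4.47 ± 1.06 for DNP and 2.98 ± 1.09 for BAC. Every DNP library was above every CON library, whereas BAC replicate 2 lay among the DNP libraries and BAC replicate 3 among the CON libraries. At these counts the counting error is wide. The exact 95% Poisson interval was 25.2 to 49.8 for the highest CON count and 35.4 to 63.6 for the lowest DNP count, and covers counting error only.

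Icam1 was 2.34-fold higher in DNP than in CON, or 1.23 on the log2 scale (standard error 0.35, interval 0.43 to 2.03), at an adjusted p of 0.327 in edgeR (unadjusted 0.00728), and DESeq2 gave an adjusted p of 0.101. On log2(FPKM + 1), where the pseudocount exceeds most of its values, the difference was 0.49. In BAC versus DNP the log2 fold change was -0.59 (standard error 0.34, interval -1.37 to 0.20) and in BAC versus CON 0.64 (standard error 0.35, interval -0.16 to 1.44), with adjusted p of 0.998 and 0.674 (edgeR). The BAC versus DNP value was -0.34 without BAC replicate 3 and -0.88 without BAC replicate 2, and the BAC versus CON value was 0.35 without BAC replicate 2. Icam1 shares 511 exonic bases with Gm47079, an antisense gene on the other strand, and the libraries carry no strand. Gm47079 had 64, 17 and 56 counts in CON, 23, 59 and 50 in DNP and 4, 74 and 19 in BAC, with no separation of DNP from CON.

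Tnfaip3 (ENSMUSG00000019850, chromosome 10 from 19000910 to 19015657) encodes A20, a ubiquitin-editing enzyme that ends NF-kB signalling, and like Nfkbia it is a classical NF-kB target. Its counts were 128, 54 and 90 in CON, 58, 34 and 61 in DNP and 54, 90 and 50 in BAC. Thus CON replicate 1 stood highest and DNP replicate 2 lowest, and the groups overlapped in each comparison. The log2 fold change in DNP versus CON was -0.83 (standard error 0.39, interval -1.72 to 0.07; adjusted p = 0.468, edgeR), on the opposite side of 0 from Nfkbia and Icam1. It was -0.54 without CON replicate 1 and -1.61 with the region scores as covariates. In BAC versus DNP it was 0.33 (standard error 0.39), falling to 0.01 if BAC replicate 2 was left out and to 0.11 if DNP replicate 2 was, and reaching 0.53 if BAC replicate 3 was. In BAC versus CON it was -0.49 (standard error 0.39) and ranged from -0.82 without BAC replicate 2 to -0.20 without CON replicate 1. 

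After TMM scaling, the kinase and the subunits showed no separation between groups. On the deposited FPKM only Relb did, in BAC versus DNP, by a narrow margin (BAC replicate 2 at 1.08514, DNP replicate 2 at 1.08549). Ikbkb (ENSMUSG00000031537, chromosome 8 from 22659212 to 22706589), the catalytic kinase of the canonical pathway, had 743, 1051 and 819 counts in CON, 606, 816 and 876 in DNP and 730, 753 and 737 in BAC. CON replicate 2 was highest and DNP replicate 1 lowest, and the 95% interval of the log2 fold change in DNP versus CON ran from -0.63 to 0.21. Rela (ENSMUSG00000024927, chromosome 19 from 5637483 to 5648130), whose product p65 carries the transactivation domain of the canonical dimer, had 413, 581 and 435 counts in CON, 484, 496 and 520 in DNP and 434, 377 and 559 in BAC. The DNP libraries lay close together at 34.4 ± 0.622 CPM, inside the CON range (33.1 ± 7.35 CPM; SD, n = 3 mice each). The interval of its DNP versus CON difference ran from -0.37 to 0.47. 

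Nfkb1 (ENSMUSG00000028163, chromosome 3 from 135584655 to 135691547), which encodes p105 and its product p50, had 347, 503 and 329 counts in CON, 433, 382 and 385 in DNP and 451, 347 and 467 in BAC. Its log2 fold change was 0.01 in DNP versus CON (standard error 0.22) and 0.06 in BAC versus DNP (standard error 0.22), both far inside the spread. The precursor and partner genes of the non-canonical pathway, Nfkb2 (p100 and p52; ENSMUSG00000025225, chromosome 19 from 46304320 to 46312385) and Relb (ENSMUSG00000002983, chromosome 7 from 19606217 to 19629438), varied more within groups than between them. Nfkb2 had 32, 68 and 52 counts in CON, 44, 42 and 41 in DNP and 56, 27 and 75 in BAC, and shares 299 exonic bases with Psd, a far more abundant gene on the other strand (1943 to 8323 counts), so its counts are uncertain. Relb had 121, 61 and 100 counts in CON, 98, 95 and 114 in DNP and 66, 96 and 57 in BAC. The libraries low in Relb (CON replicate 2, BAC replicates 1 and 3) were those high in Nfkb2, and also those with the highest cerebellum scores (4.21, 3.24 and 1.94). The log2 fold change of Relb in BAC versus DNP was -0.49 (standard error 0.30, interval -1.18 to 0.20), with -0.75 without BAC replicate 2 and -0.29 without BAC replicate 3.

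**Figure D2:**
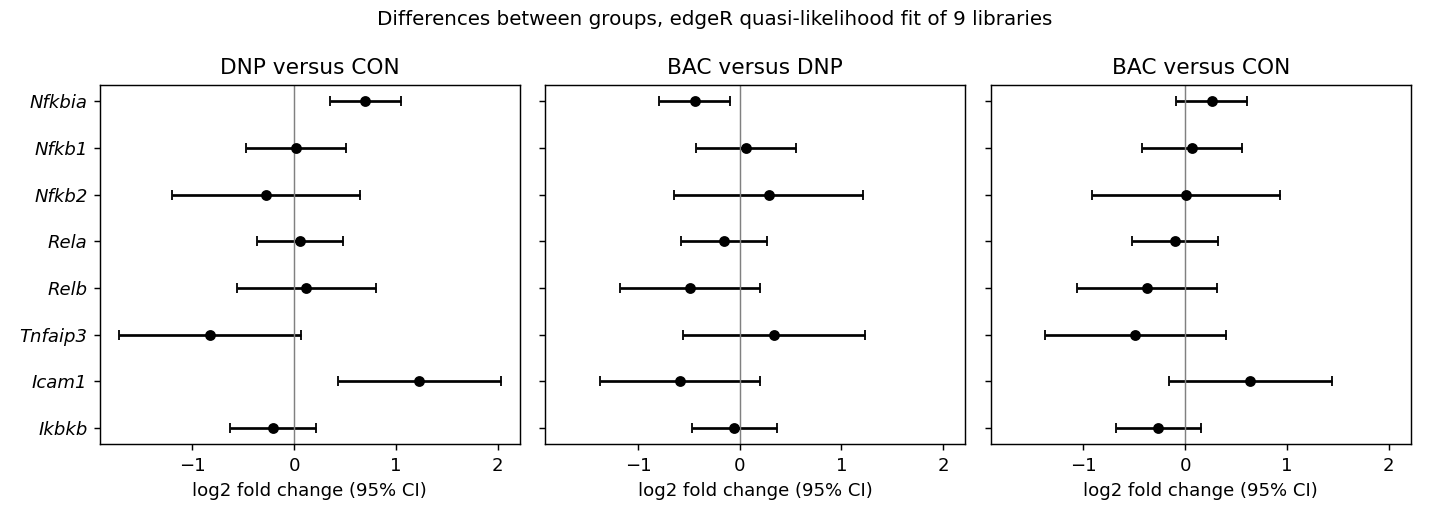
Points give the log2 fold change of each gene from edgeR's fit of the 9 libraries and bars its 95% interval, with 1 panel per comparison. In DNP versus CON the intervals of Nfkbia and Icam1 lie above 0, in BAC versus DNP that of Nfkbia lies below 0, and every interval in BAC versus CON spans 0.

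Counted over the group, 0 of the 8 genes had an adjusted p under 0.05 in edgeR in any comparison, where the share over all tested genes was 0% as well. At an unadjusted p under 0.05, 2 of 8 passed in DNP versus CON, both higher (all genes 11.2%), 1 of 8 in BAC versus DNP, which was lower (all genes 2.37%; 0 of 8 without DNP replicate 2 or without BAC replicate 1, and 2 of 8 without BAC replicate 2), and 0 of 8 in BAC versus CON (all genes 7.76%, with 4.46% higher and 3.3% lower). DESeq2 called 1 of 8 by adjusted p in DNP versus CON (all genes 1.46%) and 0 in BAC versus DNP (0.00856%) and BAC versus CON (0.421%), and limma on log2 FPKM called 0 in each. The 2 groups did not overlap for 2 of 8 genes in DNP versus CON, both higher (all genes 18.2%, of which 9.59% higher and 8.63% lower). The same held for 1 of 8 in BAC versus DNP, which was lower (all genes 6.79%, with 3.38% higher and 3.41% lower), and for 1 of 8 in BAC versus CON, which was higher (all genes 13.4%, with 7.21% higher and 6.23% lower). On the deposited FPKM these counts were 2 of 8 (the same genes, Nfkbia and Icam1; all genes 18.2%), 2 of 8 (Nfkbia and Relb, both lower; all genes 6.68%) and 0 of 8 (all genes 13.4%). By sign alone, 5 of 8 were higher in DNP versus CON (all genes 51.4%), 3 of 8 in BAC versus DNP (48.1%) and 4 of 8 in BAC versus CON (48.2%). The median log2 fold change of the 8 genes was 0.03 in DNP versus CON, beside 0.01 over all tested genes, and -0.10 beside -0.01 in BAC versus DNP.

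Because region content differed, the members were also read among libraries whose region scores had the same signs. This comparison was added after the data were seen and is given as values with no test. Among the 4 libraries with both region scores below 0, Nfkbia was at 15.1 CPM in the CON library, 25.8 and 28.7 in the DNP libraries and 17.7 in the BAC library. Among the 3 libraries with both scores above 0, it was at 24.6 CPM in the DNP library and at 18.0 and 22.6 in the BAC libraries. Each set held a single library of at least 1 group, and its libraries were not matched in content. In the second set the summed cerebellum markers were 612 CPM in DNP replicate 1 and 3379 and 1102 in BAC replicates 1 and 3. In the first set the summed oligodendrocyte markers were 2932 CPM in CON replicate 1, 3734 and 7151 in DNP replicates 2 and 3 and 2930 in BAC replicate 2. Icam1 was at 2.39 CPM in the CON library, 3.28 and 4.86 in the DNP libraries and 4.07 in the BAC library of the first set, where BAC and DNP overlapped. In the second set it was at 5.29 CPM in DNP and at 1.89 and 2.98 in BAC.

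With both scores as covariates in edgeR's model of all genes, the DNP versus CON log2 fold change was 0.78 for Nfkbia (adjusted p = 0.308) and 0.94 for Icam1 (adjusted p = 0.517). Tnfaip3 was at -1.61 (adjusted p = 0.308), Ikbkb at 0.42 (0.344), Nfkb1 at 0.45 (0.411) and Rela at 0.44 (0.423), each with a smaller adjusted p than Icam1 (edgeR). In this fit 3 of 8 members had an unadjusted p under 0.05, as did 2617 of the 18501 tested genes. In the same fit Ikbkb had the smallest p of the 8 genes for the region terms, with 0.12 per unit of cerebellum score (standard error 0.03) and -0.13 per unit of brainstem score (standard error 0.03), and adjusted p of 0.0643 and 0.0955. At an unadjusted p under 0.05, the cerebellum term passed for Ikbkb, Nfkb1 and Nfkb2 (3 of 8, all genes 27.2%) and the brainstem term for Ikbkb (1 of 8, all genes 21%). No member passed an adjusted p of 0.05 on either term (edgeR; 3.66% and 0.0108% of all genes). The region terms of Nfkbia were 0.02 and -0.01, both within their standard errors of 0.05 and 0.04.

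**Figure D3:**
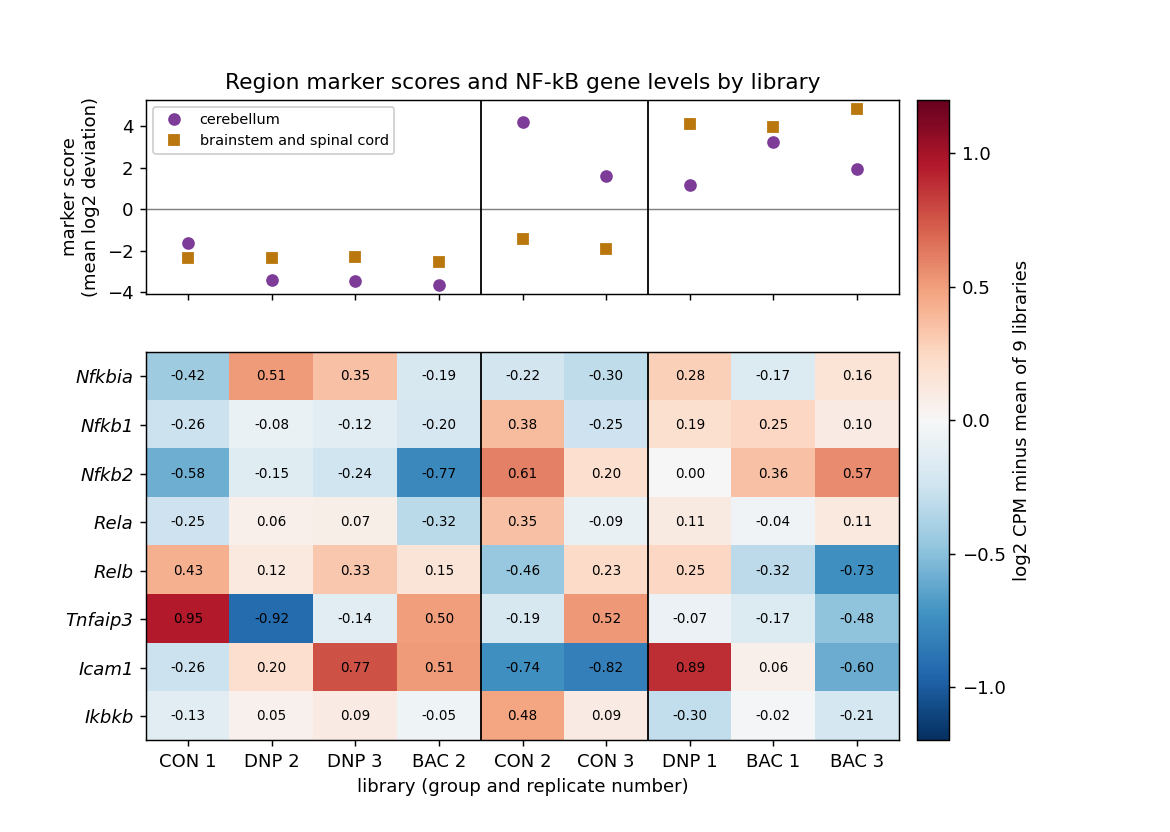
The upper panel gives the cerebellum and brainstem scores (mean log2 deviation of the markers) of each library, and the lower panel the log2 CPM of each gene minus its mean over the 9 libraries, as numbers and colours; vertical lines separate libraries with both scores below 0, only the cerebellum score above 0, and both above 0. Nfkbia is above its mean in the 3 DNP libraries and in BAC replicate 3. Relb and Nfkb2 are opposite in sign in every library except CON replicate 3 and DNP replicate 1, with Relb the lower in CON replicate 2 and BAC replicates 1 and 3.

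Of 103 further NF-kB genes in 5 lists, 79 had enough counts to be tested. By edgeR's adjusted p, 0 of the 79 passed in any comparison. At an unadjusted p under 0.05, 3 were higher and 5 lower in DNP versus CON (all genes 5.71% and 5.46%), and 0 were higher and 3 lower in BAC versus DNP (all genes 1.37% and 1.00%). In BAC versus CON 3 were higher and 3 lower (all genes 4.46% and 3.3%). DESeq2 called Lcn2 and Cebpd by adjusted p in DNP versus CON (all genes 1.46%), Lcn2 and Dusp1 in BAC versus CON (0.421%) and none in BAC versus DNP (0.00856%). The median log2 fold change over the 79 genes was 0.05 in DNP versus CON and -0.06 in BAC versus DNP.

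Among 8 other subunits and inhibitors, 4 were higher and 4 lower in DNP, and none had an unadjusted p under 0.05 in edgeR. Nfkbib, which encodes IkappaB-beta, had 324, 338 and 339 counts in CON, 380, 370 and 434 in DNP and 315, 302 and 399 in BAC, with log2 fold changes of 0.23 in DNP versus CON and -0.24 in BAC versus DNP. After TMM scaling, its DNP libraries lay above both other groups without overlap (all genes 9.59% higher in DNP versus CON, 3.41% lower in BAC versus DNP). DNP replicate 2 was only narrowly above BAC replicate 3, and scaled by library totals alone it lay below it, so that DNP and BAC overlapped. Bcl3, an atypical IkappaB that acts in the nucleus, had 18, 2 and 4 counts in CON and 24, 15 and 26 in DNP. Nfkbie, which encodes IkappaB-epsilon, ranged from 43 to 175 counts within CON alone. 

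Of 28 kinases and adaptors, 14 were higher and 14 lower in DNP, and those with the smallest p were Tab2, Map3k14 and Card9. Tab2, an adaptor of the TAK1 kinase, differed by -0.27 on the log2 scale (standard error 0.11) and Map3k14, the NIK kinase of the non-canonical pathway, by -0.89 (standard error 0.38). Card9, an adaptor of myeloid cells, was at 0.58 (standard error 0.26). Traf5, a TNF receptor adaptor, had the smallest p of this list in BAC versus DNP, with 29, 74 and 64 counts in DNP and 15, 31 and 20 in BAC, and it also had only 19 counts in CON replicate 2.

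Of 23 ligand and receptor genes, 8 had too few counts to be tested. Among these, the ligand genes Tnf had at most 3 counts in a library, Il1b at most 7, Il1a at most 12, Lta at most 10, Ltb at most 11, Tnfsf11 at most 4 and Cd40lg 0, and the receptor gene Cd40 had at most 11. Differences in them were not detectable at this depth. Of the 15 ligand and receptor genes tested, 10 were higher in DNP than in CON with a median log2 fold change of 0.29. Il1r1, the signalling receptor of interleukin 1, had 69, 107 and 76 counts in CON, 135, 105 and 141 in DNP and 96, 91 and 102 in BAC. Its log2 fold change was 0.58 (standard error 0.24) in DNP versus CON and -0.41 (standard error 0.24) in BAC versus DNP. Tnfrsf1b, a TNF receptor, was at 0.48 (standard error 0.23) in DNP versus CON. Tlr2, a receptor for microbial lipopeptides, was at 1.17 (standard error 0.56) in DNP versus CON, with its highest counts (54 to 58) in the libraries whose brainstem score was above 0.

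Among 13 feedback regulators, 8 were higher in DNP, and the 2 with an unadjusted p under 0.05 were lower (edgeR; all genes 5.46% in that direction). Dusp1, a phosphatase of stress kinases, had 836, 1101 and 1047 counts in CON, 584, 624 and 538 in DNP and 326, 586 and 503 in BAC, so both diabetic groups lay below CON. Its log2 fold change was -0.79 (standard error 0.22) in DNP versus CON and -1.11 (standard error 0.22) in BAC versus CON, and DESeq2 called the latter (adjusted p = 0.00836) where edgeR did not (adjusted p = 0.628). Cyld, a deubiquitinase that restrains IKK, was at -0.86 (standard error 0.30) in DNP versus CON, with 2809, 1805 and 1289 counts in CON and 1360, 898 and 968 in DNP. Irak3, an inhibitor of Toll-like receptor signalling, was at 0.76 (standard error 0.38).

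Of 31 other NF-kB targets, 15 could be tested. The chemokine and cytokine genes Ccl2, Ccl3, Ccl4, Ccl5, Cxcl1, Cxcl2 and Il6 had at most 8 counts in any library, and the endothelial selectins Sele and Selp at most 3 and 6. Cebpd, a transcription factor of the acute phase, had 64, 44 and 56 counts in CON, 122, 161 and 99 in DNP and 62, 97 and 64 in BAC. On the log2 scale it differed by 1.22 (standard error 0.29) between DNP and CON, where DESeq2 called it, and by -0.79 (standard error 0.29) between BAC and DNP. Lcn2, which encodes lipocalin 2, had 2 counts in each CON library, 31 to 107 in DNP and 15 to 38 in BAC. Gadd45b, a stress-response gene, was at -0.39 (standard error 0.17) in DNP versus CON.

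**Figure D4:**
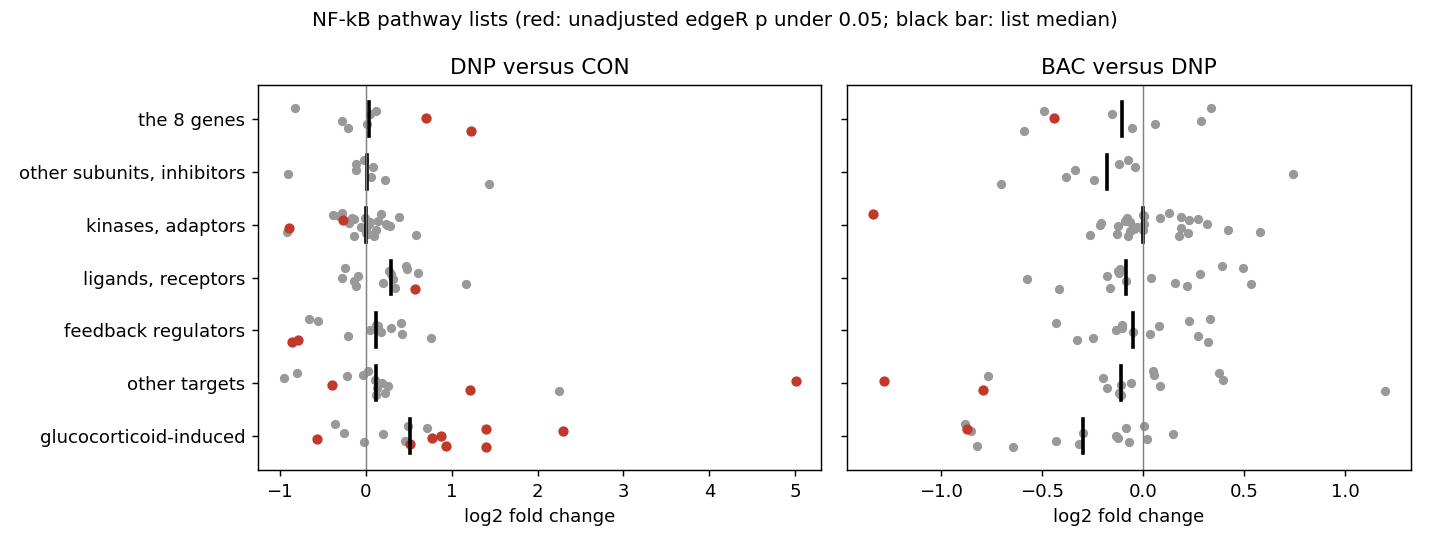
Each point is the log2 fold change of a tested gene in DNP versus CON (left) or BAC versus DNP (right), grouped by list, with genes at an unadjusted edgeR p under 0.05 in red and the list median as a black bar. The medians of the NF-kB lists lie between 0.00 and 0.29 in DNP versus CON and that of the glucocorticoid-induced list at 0.52; the point at 5.00 is Lcn2, whose fitted value depends on the prior count.

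The genes of other groups were read beside Nfkbia and Icam1. Of 15 glucocorticoid-induced genes, 11 were higher in DNP than in CON, 7 of them at an unadjusted p under 0.05 (edgeR; all genes 5.71% in that direction). The median log2 fold change of the list was 0.52 in DNP versus CON and -0.30 in BAC versus DNP. The list held neither Nfkbia nor Dusp1, and Dusp1, as given above, was lower in both diabetic groups than in CON. Sgk1, a kinase gene induced by corticosteroids, had 972, 799 and 1303 counts in CON, 3615, 2160 and 2356 in DNP and 964, 1329 and 2334 in BAC. Its DNP libraries after TMM scaling were above those of both other groups, but DNP replicate 2 only narrowly above BAC replicate 3. Scaled by library totals alone, DNP replicate 2 lay below BAC replicate 3, so that DNP and BAC overlapped. The summed level of the list ranged from 721 to 904 CPM in CON, 979 to 1276 in DNP and 825 to 993 in BAC. The other 4 genes, Klf9, Per1, Zbtb16 and Errfi1, were at lower values in DNP, and the Klf9 difference was -0.57 on the log2 scale (standard error 0.12). DESeq2 called Sgk1, Arrdc2, Mt1, Plin4 and, at a lower value in DNP, Klf9 of this list by adjusted p in DNP versus CON (all genes 1.46%). The part of this list in the level of Nfkbia was not tested.

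Of 12 endothelial markers, 7 were higher in DNP than in CON with a median log2 fold change of 0.06. In BAC versus DNP 12 were lower, 5 of them at an unadjusted p under 0.05 (edgeR), with a median of -0.47. Their summed level was 355 to 444 CPM in CON, 433 to 543 in DNP and 319 to 417 in BAC. In DNP versus CON the 4 with an unadjusted p under 0.05 (edgeR) were Vwf (0.78 on the log2 scale, standard error 0.16), Ly6c1 (0.88, standard error 0.19), Slc2a1 (0.58, standard error 0.21) and, in the other direction, Kdr (-0.79, standard error 0.33). Of 10 microglial markers, 9 were higher in DNP than in CON with a median of 0.40, and their summed level was 186 to 339 CPM in CON, 368 to 428 in DNP and 307 to 460 in BAC. The 8 neutrophil markers summed to 0.562 to 2.39 CPM in CON, 1.06 to 15.8 in DNP and 2.09 to 7.71 in BAC, and Ly6g had at most 3 counts. Of these, 3 could be tested, and 3 were higher in DNP than in CON, 2 of them at an unadjusted p under 0.05 (edgeR), with a median log2 fold change of 2.78. Of 8 meningeal fibroblast markers, 8 were lower in DNP than in CON, 4 at an unadjusted p under 0.05, and 8 were higher in BAC than in DNP, 6 at that threshold (edgeR). Their summed level was 74.0 to 103 CPM in CON, 40.9 to 54.9 in DNP and 73.7 to 123 in BAC. Of 8 astrocyte markers, 6 were lower in DNP than in CON, 2 at an unadjusted p under 0.05, and 8 were higher in BAC than in DNP, 1 at that threshold (edgeR). Over all tested genes, 5.71% were higher and 5.46% lower in DNP than in CON at an unadjusted p under 0.05 (edgeR). At that threshold 1.37% were higher and 1% lower in BAC than in DNP. The part of these marker lists in the levels of Nfkbia, Icam1 and Lcn2 was not tested.

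Among the 16783 tested genes with a mean of at least 1 CPM, those most alike in profile to each member over the 9 libraries (Pearson r of log2 CPM, given as a description of libraries that share region content) were as follows. Nfkbia was most like Gm5905, a processed pseudogene (r = 0.97), and Ctsz, a lysosomal protease gene of microglia (r = 0.96). Icam1 was most like Akr1b3, which encodes aldose reductase, the enzyme that turns glucose into sorbitol (r = 0.93), and Tssk6 (r = 0.92). Akr1b3 had 173, 155 and 156 counts in CON, 209, 222 and 232 in DNP and 177, 212 and 191 in BAC. Rela was most like Pcyt2 (r = 0.97), Nfkb1 like Adamts16 and Mfn1 (r = 0.98 each) and Nfkb2 like 3632454L22Rik and the astrocyte gene Aldh1l1 (r = 0.95 each). Relb was most like Ola1 and Apc (r = 0.96 each), Tnfaip3 like Gm35558 (r = 0.97) and Fbxl17 (r = 0.96), and Ikbkb like Usp36 (r = 0.98). No gene was shared between these lists. Among the members themselves, Nfkbia and Icam1 had r = 0.56, Nfkbia and Tnfaip3 r = -0.80, Nfkb2 and Rela r = 0.78 and Nfkb2 and Relb r = -0.79.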

How the data were processed

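Whole-brain libraries of 9 mice were analysed, grouped by their labels, with CON, DNP and BAC at 3 mice each. The authors filtered reads with fastp, aligned them to GRCm38 with HISAT2 2.1.0 and quantified genes with StringTie 1.3.3b. As deposited, 1 table gives unnormalized gene counts and the other FPKM values, which equal the count divided by a fixed length and the library total. How reads mapping to several genes were counted is not given in the sources used here.

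Counts were analysed in R 4.3.3 with edgeR 4.0.16 (filterByExpr, minimum count 10, TMM, quasi-likelihood test, all 9 libraries in 1 model, group as the factor), with Benjamini-Hochberg adjustment over the 18501 genes tested and a threshold of 0.05. Genes were named by rule: the 8 members, the 3 genes of each pathway list with the smallest p in DNP versus CON and the 1 with the smallest in BAC versus DNP, list genes too low to test, glucocorticoid and marker genes beside a result, and the 2 genes most like each member. The members and lists were chosen with earlier results of these data known. Alternatives were DESeq2 1.42.0, other scalings and filters, limma 3.58.1 on log2 FPKM (pseudocount 0.1 or 1), a replicate block, region scores as covariates and each library left out. The fit was tested on simulated counts of 18501 genes, 200 of them changed by a log2 fold change of 2 in DNP versus CON. At the adjusted threshold it recovered 59.5% of these, with 8 false calls. Smaller changes were not simulated. Positions come from GENCODE vM21 (GRCm38) and promoters from RefSeq (GRCm38.p6). Differences between libraries of a group exceeded counting error (chi-square per degree of freedom 15.1 to 116).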

Additional observations from a re-analysis of the deposited data

How the results depend on the processing

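The log2 fold changes of Nfkbia and Icam1 kept their direction under all 19 alternatives, whichever groups were compared. For Nfkbia in DNP versus CON they ranged from 0.63 to 0.78, with adjusted p from 0.0196 (DESeq2) to 0.628. For Icam1 they ranged from 0.49 to 1.42, with adjusted p from 0.101 to 0.637. Over the 8 genes and 19 alternatives, direction and side of the threshold held for 139 values of DNP versus CON, 146 of BAC versus DNP and 141 of BAC versus CON, and the cause of the exceptions was not tested.

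Genes past the adjusted threshold by DESeq2 numbered 280 for DNP versus CON, 3 for BAC versus DNP and 89 for BAC versus CON (edgeR 0 each), and by edgeR with a library left out 0 to 1 for DNP or BAC versus CON (1 without CON replicate 2 or CON replicate 3). Leaving out a library gave 3 to 5 of the 8 genes higher in DNP versus CON (main value 5; 3 without CON replicate 1 or CON replicate 3), and 2 to 5 in BAC versus CON (main value 4; 2 without CON replicate 1 or BAC replicate 1).

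With the region scores as covariates, 1 of 8 was higher in BAC versus DNP (main value 3), and these values took the opposite sign: in DNP versus CON Nfkb2 0.50, Relb -0.35 and Ikbkb 0.42; in BAC versus DNP Nfkb1 -0.12 and Nfkb2 -0.16; in BAC versus CON Rela 0.15 and Ikbkb 0.38. Nfkb1 in DNP versus CON was -0.0034 with RLE size factors and -0.00092 without the filter on low counts.

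When a library was left out, values that crossed 0 were, in DNP versus CON, Nfkb1 (-0.10 to 0.25), Nfkb2 (-0.54 to 0.0085), Rela (-0.068 to 0.24) and Relb (-0.11 to 0.30). In BAC versus DNP they were Nfkb1 (-0.044 to 0.17) and Ikbkb (-0.16 to 0.019), and in BAC versus CON Nfkb1 (-0.042 to 0.32), Nfkb2 (-0.26 to 0.31) and Rela (-0.22 to 0.095).

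The replicate numbers did not pair the libraries: deviations from the group means of same-numbered libraries had r from -0.579 to 0.56 across genes, above 0.1 in 3 of 9 pairs. With the replicate block, Nfkb2 in BAC versus CON was -0.0082, no gene passed the adjusted threshold, and in DNP versus CON 1688 in place of 2067 genes had p under 0.05 before adjustment (edgeR). Genes with few counts, Icam1, Nfkb2 and Tnfaip3 among them, are limited by depth.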
